A study of Mus musculus with 12 samples.

Results

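The data describe 7 genes of the cyclic AMP phosphodiesterase family, out of the 29737 genes in the count table, in mouse neutrophils treated with bile acids. The genes were Pde7b and its paralogs Pde7a, Pde4a, Pde4b, Pde4d, Pde3b and Pde8a. Pde7b was chosen by its higher count with Tβ-MCA than with PBS, and the paralogs were added for their family, with results of these data already known. The values of Pde7b with Tβ-MCA are therefore given as a description without a test.

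Neutrophils from the bone marrow of wild-type (WT) mice, described in the labels as Ly6G positive and purified with magnetic beads, were cultured for 24 h and their mRNA was sequenced. The study asked how primary bile acids change the phenotype of neutrophils. There were 4 groups of 3 samples: PBS as control, taurocholic acid (TCA) at 200 μM, glycocholic acid (GCA) at 200 μM, and tauro-β-muricholic acid (Tβ-MCA) at 10 μM according to the labels. The methods text gives Tβ-MCA the same dose as the other bile acids, so its dose is uncertain. The cells were cultured outside the animal, and no source says which samples came from separate mice. P-values therefore measure the spread between these samples, which may be partly technical.

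Cyclic AMP (cAMP) is made from ATP by adenylyl cyclases, mainly when Gs-coupled receptors are activated, and acts through protein kinase A (PKA) and the exchange factors called Epac. Phosphodiesterases are the enzymes that break cAMP down and so set how long and where it acts. The families PDE4, PDE7 and PDE8 are selective for cAMP, while PDE3 hydrolyses cAMP and is inhibited by cGMP. In neutrophils, a rise in cAMP is known to restrain activation, and PDE4 enzymes are the best studied phosphodiesterases of these cells.

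Total counts lay between 32757389 and 41375925 per sample, and 3 counts, the smallest number treated as detected, were 0.0725 to 0.0916 CPM, the count scaled to a common library size, which covers counting error only. CPM values were scaled by TMM normalization. All 7 genes passed the filter on low counts, which left 16761 genes for testing. A list of 12 neutrophil marker genes summed to 33741 to 40687 CPM with PBS and 26257 to 30856 CPM with Tβ-MCA, and 4 of its genes were lower with Tβ-MCA in edgeR's test with an adjusted p under 0.05, or 10 of the 12 without Tβ-MCA replicate 5. A list of 12 monocyte and macrophage markers summed to 1367 to 1434 CPM with PBS, 1215 to 1459 with TCA and 1048 to 1404 with GCA, but to 470.1, 598.9 and 1151 CPM in Tβ-MCA replicates 3, 4 and 5. Of these 12, 1 was called lower with Tβ-MCA against PBS, and 10 were without replicate 5. The share of all genes called lower was 3.18%, and 9.44% without replicate 5. A list of 8 eosinophil markers summed to 156.8 to 276.2 CPM with PBS and to 61.1 to 141.2 CPM with Tβ-MCA. None of the genes of these 3 lists was under 3 counts in all samples of a group. Over all 12 samples, the lists of B cells summed to 3.78 to 12.9 CPM, of T and NK cells to 1.73 to 3.84, of basophils and mast cells to 47.2 to 87.3, and of erythroid cells to 1.24 to 3.22. The B cell list was at 7.55 to 12.9 CPM with PBS and 3.78 to 5.92 with Tβ-MCA. The T and NK cell list was at 2.75 to 3.80 CPM with PBS and 1.73 to 2.41 with Tβ-MCA. The lists of basophils and mast cells and of erythroid cells overlapped between these groups. In such bulk samples, fewer cells of a type and less RNA per cell cannot be told apart. The libraries of GCA replicate 4 and Tβ-MCA replicate 5 were the closest of all 66 pairs, with a chi-square of 2.82 per gene against a lowest value of 4.79 within a group. Replicate 5 was also the farthest from the other Tβ-MCA libraries, with 33.6 and 24.7 per gene against 15.4 between replicates 3 and 4. Fold changes with Tβ-MCA that turn on this library are therefore also given without replicate 5.

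The start regions of 2 members are shown first, Pde7b as the gene singled out by its response and Pde8a as the most abundant of the 7 per exon length. RefSeq holds windows for 5 of the 7 members (10 windows, GRCm38.p6). In the 250 bases before each start, the half-site of the cAMP response element, TGACG on either strand (CGTCA on the other), was searched, together with the full element TGACGTCA, which contains it. The half-site was in 3 of the 10 member windows and in 17.8% of all 32851 windows of the same length, and the full element was in 0 of the 10 and in 1.55% of all. The window of Pde8a held a half-site 84 bases before the start, printed in capitals, and the Pde7b window held none. The window of Pde7b is cut to the bases outside known exons, and both sequences run 5′ to 3′ on the strand of the gene.
Pde7b, chr10:20548471-20548578, minus strand, 108 bases: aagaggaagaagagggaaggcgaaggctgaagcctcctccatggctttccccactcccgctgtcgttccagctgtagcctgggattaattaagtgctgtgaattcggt
Pde8a, chr7:81213015-81213264, plus strand, 250 bases: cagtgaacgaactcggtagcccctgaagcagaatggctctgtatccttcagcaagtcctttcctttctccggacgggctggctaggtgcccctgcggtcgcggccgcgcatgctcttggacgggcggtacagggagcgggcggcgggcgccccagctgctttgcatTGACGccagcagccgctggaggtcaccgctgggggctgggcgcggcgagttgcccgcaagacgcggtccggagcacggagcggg
The Pde7b start lies inside the deposited gene span (chromosome 10, 20398004 to 20725078), which reaches further upstream. The remaining half-sites were in 1 of the 4 windows of Pde4b, 34 bases before its start, and in 1 of the 3 windows of Pde4a, 50 bases before its start.

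Per exon length, Pde8a was the most abundant of the 7 genes in control neutrophils and Pde7b the least. Levels of different genes were compared as RPKM, the deposited counts scaled to exon length and library size. Pde8a, which encodes a phosphodiesterase with a very high affinity for cAMP, was at 11.8 ± 1.33 RPKM with PBS (SD, n = 3). Pde4d followed with 3.58 ± 0.105 RPKM, Pde4b with 2.76 ± 0.221 and Pde3b with 2.38 ± 0.223 (SD, n = 3 each). Pde7a was at 1.67 ± 0.0919 RPKM, Pde4a at 0.691 ± 0.123 and Pde7b at 0.309 ± 0.0338 (SD, n = 3 each). Among neighbours in this order, the samples of Pde4b and Pde3b overlapped in RPKM, and the other neighbours were separate in every PBS sample. The order depends on the deposited exon lengths, which were 4045 bases for Pde8a and 12006 for Pde4d. As CPM with PBS, these 2 genes overlapped, at 43.9 to 55.1 for Pde8a and 42.7 to 44.8 for Pde4d. Among the genes tested, the PBS level of Pde8a lay at percentile 75.1 and that of Pde7b at percentile 13.8. The family is wider than these 7 genes, and per length the most abundant phosphodiesterase genes were others. Pde1b, a calcium and calmodulin dependent enzyme, was at 75.4 ± 8.54 RPKM with PBS and Pde2a, which is stimulated by cGMP, at 51.9 ± 1.74 RPKM (SD, n = 3 each), and both hydrolyse cAMP and cGMP.

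The summed RPKM of the 7 genes was close to level across the groups. The 3 PBS samples (replicates 3, 5 and 6) had sums of 24.6, 22.02 and 22.97 RPKM. For replicates 3, 4 and 5 of each bile acid, the sums were 23.6, 24.1 and 23.4 RPKM with TCA, 25.1, 23.6 and 23.01 RPKM with GCA, and 23.4, 24.3 and 24.1 RPKM with Tβ-MCA. The sums of each bile acid overlapped those of PBS. The mean difference from PBS was 0.520 RPKM with TCA (p = 0.6) and 0.725 RPKM with GCA (p = 0.4), and it was 0.205 RPKM between GCA and TCA (p = 0.8), in two-sided exact permutation tests with 3 samples a group. With 3 against 3 the smallest p such a test can give is 0.1. Without Pde7b, the sum of the 6 paralogs was 0.285 RPKM higher with Tβ-MCA than with PBS (p = 0.9, exact permutation test).

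**Figure D1:**
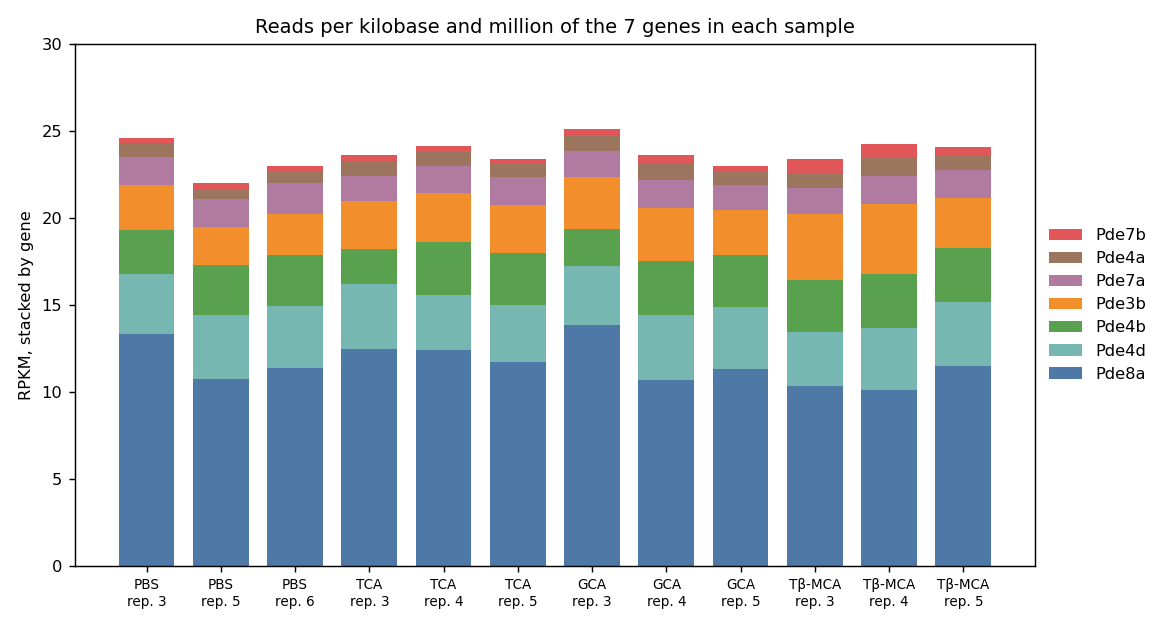
Stacked bars give the RPKM of each of the 7 genes (vertical axis) in each of the 12 samples (horizontal axis, group and replicate). The sums lie between 22.02 and 25.1 RPKM, Pde8a fills the largest part of every bar, and Pde7b is the thin top segment that is thickest in Tβ-MCA replicates 3 and 4.

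The mean shares of 3 genes in this sum differed in value with Tβ-MCA, which was not tested, and Pde7b was selected for its rise. Pde8a held 50.8% of it with PBS and 44.5% with Tβ-MCA, Pde3b held 10.3% and 15.0%, and Pde7b held 1.34% and 3.02% (means of 3 samples each). Pde7b was below Pde4a in every sample of both groups, by a smaller distance with Tβ-MCA, where Pde7b was at 0.515 to 0.841 RPKM and Pde4a at 0.797 to 1.01 RPKM. Pde3b was below Pde4d in every PBS sample. With Tβ-MCA it was above Pde4d in replicates 3 and 4 and below it in replicate 5, at 2.89 to 4.02 RPKM for Pde3b and 3.08 to 3.67 RPKM for Pde4d.

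Pde7b encodes a cAMP-selective phosphodiesterase that is not blocked by the PDE4 inhibitor rolipram. Its counts were 123, 147 and 142 in PBS replicates 3, 5 and 6. They were 157, 185 and 121 in TCA replicates 3, 4 and 5, and 203, 201 and 183 in GCA replicates 3, 4 and 5. With Tβ-MCA, replicates 3, 4 and 5 had 329, 376 and 236 counts. All Tβ-MCA samples were above all others, and replicate 5 was the lowest of them and nearest to the GCA samples. As CPM, Pde7b was at 3.89 ± 0.402 with PBS, 4.21 ± 0.829 with TCA, 5.41 ± 0.573 with GCA and 8.77 ± 2.13 with Tβ-MCA (SD, n = 3 each). Without replicate 5 the level with Tβ-MCA was 10.0 ± 0.221 CPM (SD, n = 2). Against PBS, the log2 fold change with Tβ-MCA was 1.17 (standard error 0.19), or 1.36 (standard error 0.17) without replicate 5, which is the value that selected the gene. Against TCA it was 1.06 (standard error 0.19), with the same Tβ-MCA samples and so equally without a test.

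**Figure D2:**
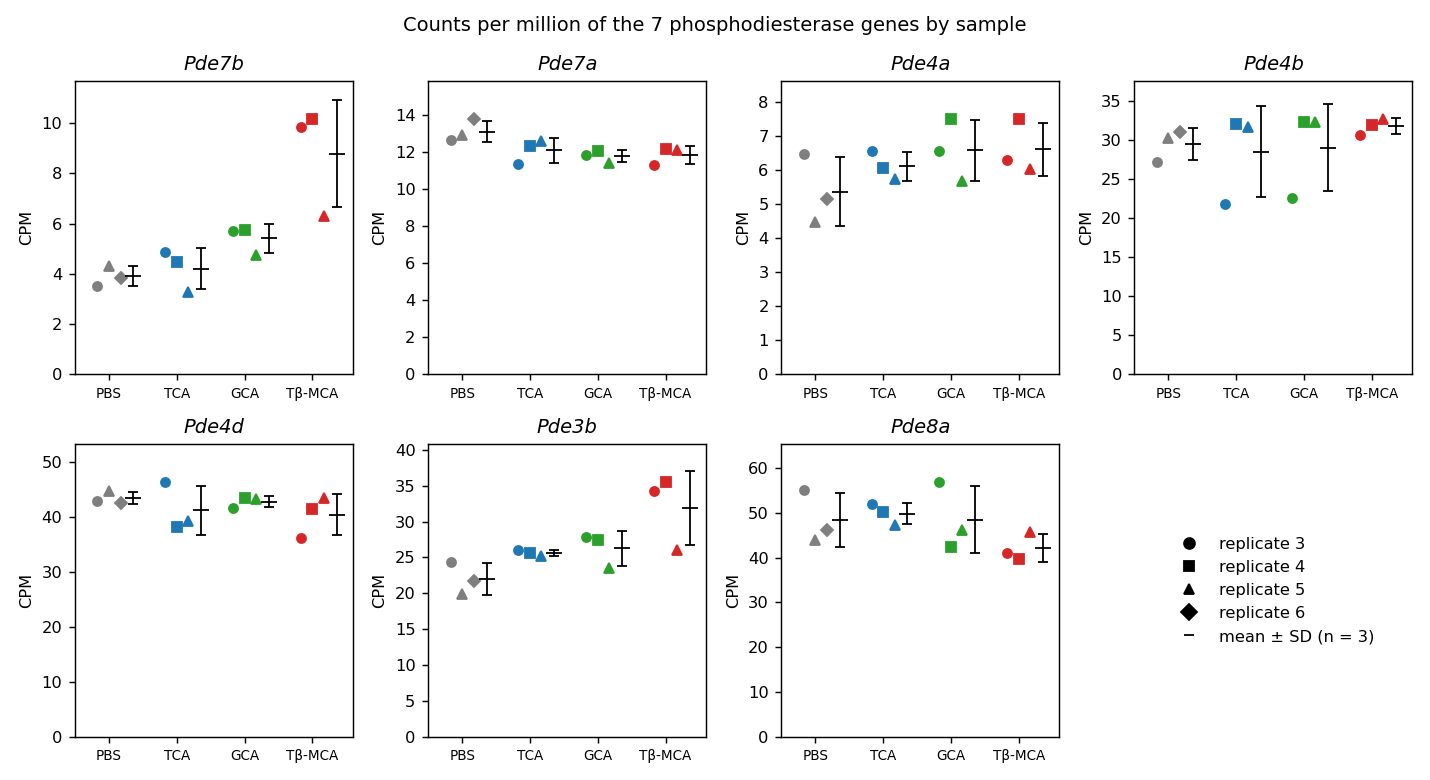
Each panel plots the TMM-scaled CPM of a gene (vertical axis, from 0) in the 4 treatment groups (horizontal axis), with a point per sample, shaped by replicate number, and the mean ± SD of 3 samples beside the points. Pde7b lies at 6.32 to 10.2 CPM with Tβ-MCA and at or below 5.76 CPM elsewhere, while the points of Pde4b, Pde4d and Pde8a overlap between Tβ-MCA and PBS.

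The comparisons of GCA and TCA with PBS shared the PBS samples that helped to select Pde7b. The Tβ-MCA samples entered their spread, which was estimated over all 12 samples. The values of Pde7b in these comparisons are therefore no separate check. The counts of Pde7b with GCA were above those with PBS in every sample, and the log2 fold change was 0.47 (95% confidence interval 0.06 to 0.88). It did not pass adjustment in edgeR (adjusted p = 0.999, unadjusted 0.0262). With TCA the log2 fold change of Pde7b was 0.11 (95% confidence interval -0.30 to 0.52, adjusted p = 0.9999 in edgeR), and the TCA samples lay on both sides of the PBS range. The deposited span of Pde7b holds Gm17229 on its strand and Gm17230 on the other, with no shared exon bases and at most 8 and 27 counts.

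Pde7a, the closest paralog of Pde7b, had none of this rise. Its CPM was 12.7, 12.9 and 13.8 in PBS replicates 3, 5 and 6 while Tβ-MCA replicates 3, 4 and 5 had 11.3, 12.2 and 12.1. It was 11.4, 12.4 and 12.6 with TCA and 11.9, 12.1 and 11.4 with GCA, in the order of replicates 3, 4 and 5. In TMM-scaled CPM, every bile acid sample was thus below every PBS sample, by small steps. In RPKM, PBS replicate 3 was at 1.59, below TCA replicate 5 (1.63) and Tβ-MCA replicate 4 (1.62). The log2 fold change was -0.14 with Tβ-MCA (95% confidence interval -0.33 to 0.04, adjusted p = 0.336, and -0.16 without replicate 5), -0.12 with TCA and -0.16 with GCA (adjusted p = 0.9999 and 0.999 in edgeR), and none passed the test. These 3 comparisons share the PBS samples. Pde7a (chromosome 3, 19223108 to 19311322) shares 48 exon bases with Gm16093 on the other strand, which had 16 to 34 counts.

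Pde3b was the paralog that rose with Tβ-MCA. It encodes the PDE3 enzyme that insulin activates in fat cells to lower cAMP, and it lies on chromosome 7 (114415281 to 114539251). Its CPM was 24.4, 19.9 and 21.7 in PBS replicates 3, 5 and 6 while Tβ-MCA replicates 3, 4 and 5 had 34.2, 35.5 and 26.0. It was 26.1, 25.6 and 25.2 with TCA and 27.9, 27.4 and 23.5 with GCA, in the order of replicates 3, 4 and 5. The Tβ-MCA samples were all above the PBS samples, and replicate 5 lay among the TCA and GCA samples. The log2 fold change of Pde3b against PBS was 0.54 (standard error 0.11, adjusted p = 0.0211 in edgeR), and 0.66 without Tβ-MCA replicate 5 (standard error 0.10, adjusted p = 0.000351 in edgeR). Of the 6 paralogs 1 was thus called, where 7.62% of all genes tested were called, 4.44% higher and 3.18% lower. Without Tβ-MCA replicate 5 it was again 1 of 6, where 18.0% of all genes were called, 8.52% higher and 9.44% lower. The call was lost in edgeR without PBS replicate 3, 5 or 6 (adjusted p = 0.071, 0.0785 and 0.0528), without Tβ-MCA replicate 3 or 4 (0.104 and 0.121), and with only the PBS and Tβ-MCA samples fitted (0.0632), where 0 of all genes passed and 3485 had an unadjusted p under 0.05. Of all genes, 0 passed also without PBS replicate 3 or 5 or Tβ-MCA replicate 3 or 4, and 168 passed without PBS replicate 6.

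TCA and GCA gave Pde3b smaller differences from PBS in value. It was 0.22 higher than PBS on the log2 scale with TCA (95% confidence interval -0.02 to 0.46) and 0.25 higher with GCA (95% confidence interval 0.01 to 0.50, unadjusted p = 0.0403 in edgeR), and neither passed adjustment. Between Tβ-MCA and TCA, whose doses differ by the labels, the log2 fold change of Pde3b was 0.32 (adjusted p = 0.113 in edgeR), and 0.44 without Tβ-MCA replicate 5 (adjusted p = 0.00621 in edgeR). In that comparison 0 of the 6 paralogs were called with all samples, where 3.51% of all genes were called, and DESeq2 called 0 as well. By the unadjusted p in edgeR 2 of the 6 were under 0.05, where 3713 of the 16761 genes tested were. With the replicate number as a block Pde3b was called (adjusted p = 0.0210 in edgeR), where 1156 of all genes were called higher and 1166 lower. It was also called without a filter, and without both GCA replicate 4 and Tβ-MCA replicate 5. Without replicate 5, 1 of 6 was called where 15.3% of all genes were. If the doses differ as labelled, the dose and the kind of bile acid cannot be told apart here.

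The PDE4 genes encode the enzymes that dominate cAMP breakdown in many immune cells, and none of the 3 passed the test with any bile acid. Pde4a, the least abundant of them, was at 4.47 to 6.45 CPM with PBS and 6.02 to 7.48 CPM with Tβ-MCA (log2 fold change 0.30, 95% confidence interval -0.03 to 0.63, adjusted p = 0.243 in edgeR, and 0.36 without replicate 5). Pde4b was at 27.1 to 31.0 CPM with PBS and 30.6 to 32.7 CPM with Tβ-MCA (log2 fold change 0.11, 95% confidence interval -0.22 to 0.43, adjusted p = 0.716 in edgeR, and 0.09 without replicate 5). Both ranges overlapped those of PBS. Pde4b varied most within TCA and GCA, where replicate 3 was at 21.8 and 22.5 CPM and the others at 31.7 to 32.3 CPM. Pde4d was at 42.7 to 44.8 CPM with PBS and 36.3 to 43.5 CPM with Tβ-MCA (log2 fold change -0.10, 95% confidence interval -0.28 to 0.08, adjusted p = 0.492 in edgeR, and -0.16 without replicate 5). The exons of Pde4d share no bases with those of Rps3a3, a gene on the same strand within its span that had 191 to 246 counts, nor with Mir1904, which had at most 2. As a group, Pde4a, Pde4b and Pde4d summed to 7.03 ± 0.178 RPKM with PBS and 7.39 ± 0.444 RPKM with Tβ-MCA (SD, n = 3 each).

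Pde8a was at 55.1, 43.9 and 46.1 CPM in PBS replicates 3, 5 and 6 while Tβ-MCA replicates 3, 4 and 5 had 41.1, 39.6 and 45.7 CPM. The groups overlapped through Tβ-MCA replicate 5. The log2 fold change was -0.20 (95% confidence interval -0.43 to 0.03, adjusted p = 0.271 in edgeR), and -0.26 without replicate 5 (adjusted p = 0.145 in edgeR). With TCA, Pde8a was at 51.9, 50.1 and 47.2 CPM in replicates 3, 4 and 5, above all Tβ-MCA samples, and the log2 fold change of Tβ-MCA against TCA was -0.24 (adjusted p = 0.206 in edgeR). The deposited gene span (chromosome 7, 81213596 to 81334533) holds Gm7180 on the other strand, which had at most 5 counts and no shared exon bases.

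**Figure D3:**
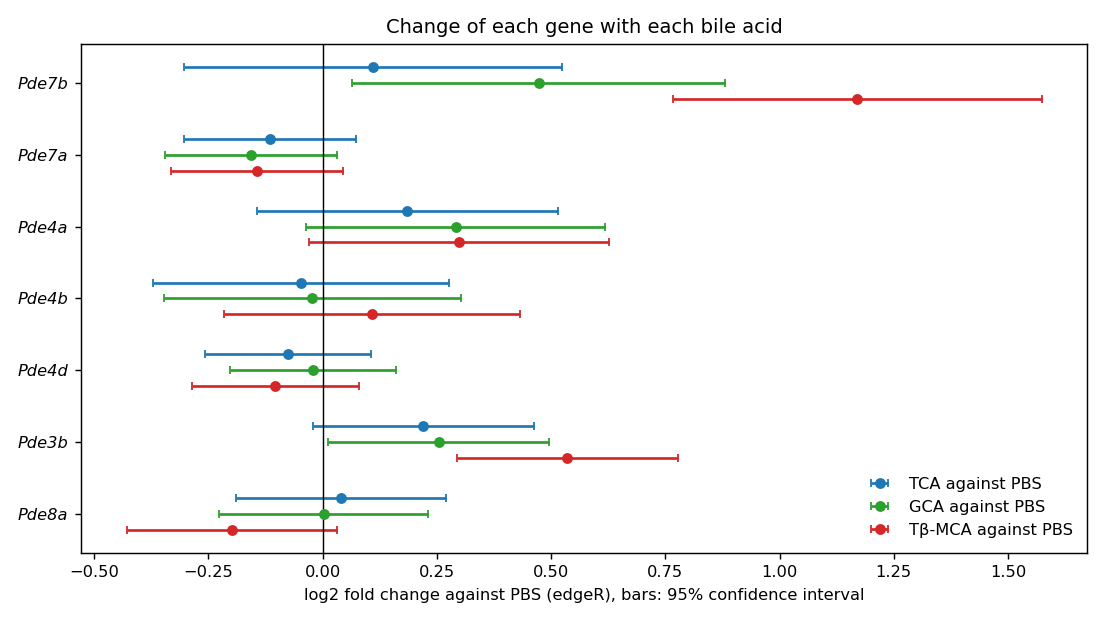
Points give the log2 fold change of each gene against PBS from edgeR (horizontal axis) for TCA, GCA and Tβ-MCA, and bars give the 95% confidence interval. With Tβ-MCA the interval lies above 0 for Pde3b (0.29 to 0.78) and includes 0 for the other 5 paralogs, and the point of Pde7b, at 1.17, is the value that selected the gene and is no test.

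With TCA, 0 of the 7 genes were called against PBS, and so were 0% of all genes. By the unadjusted p in edgeR, 0 of the 7 were under 0.05, where 3.26% of all genes were. The overlap of samples counted in this paragraph was judged on TMM-scaled CPM unless RPKM is named. The TCA and PBS samples did not overlap for Pde3b, which was higher, and Pde7a, which was lower, where 9.67% of all genes did not overlap. In RPKM, Pde7a overlapped PBS with TCA and with Tβ-MCA. With GCA, 0 of the 7 were called and 0% of all genes, while Pde7b and Pde3b had an unadjusted p under 0.05 in edgeR, where 3.53% of all genes had. The GCA and PBS samples did not overlap for Pde7b and Pde7a, where 9.55% of all genes did not. DESeq2 called 0 of the 7 in both comparisons. Between Tβ-MCA and PBS the samples did not overlap for Pde3b and Pde7a among the 6 paralogs, beside Pde7b, where 27.0% of all genes did not. Between Tβ-MCA and TCA they did not overlap for Pde8a among the paralogs, beside Pde7b, where 25.3% of all genes did not.

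GCA and TCA are conjugates of the same bile acid, cholic acid, and differ in the amino acid attached, glycine or taurine. At the matched dose of 200 μM and 24 h, no member was called between them (0 of 7, and 0% of all genes), and DESeq2 called 0 of 7. By the unadjusted p in edgeR 0 of 7 were under 0.05, where 2.46% of all genes were. The largest difference was that of Pde7b, with a log2 fold change of 0.36 (95% confidence interval -0.04 to 0.77, adjusted p = 0.9998 in edgeR). The intervals of the paralogs were -0.21 to 0.27 for Pde3b, -0.30 to 0.35 for Pde4b, -0.22 to 0.43 for Pde4a, -0.27 to 0.19 for Pde8a, -0.23 to 0.15 for Pde7a and -0.13 to 0.24 for Pde4d. These intervals give the range of differences that these samples leave possible.

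Of the 17 other phosphodiesterase genes listed, 10 had enough counts to be tested. With Tβ-MCA against PBS 0 of them were called in edgeR, where 7.62% of all genes were. An unadjusted p under 0.05 in edgeR was found for 4176 of the 16761 genes tested and for 1 of these 10. This was Pde2a, at 324.7 to 341.9 CPM with PBS and 364.0 to 381.9 CPM with Tβ-MCA (log2 fold change 0.17, adjusted p = 0.0837 in edgeR, and 0.19 without replicate 5). Pde1b (log2 fold change -0.12), Pde6h (-0.13) and Pde6d (-0.12), the last of which encodes a carrier of prenylated proteins, were the others above 10 CPM. Pde5a, Pde8b, Pde10a, Pde3a, Pde1c and Pde6b were at a mean of 2.48 CPM or less with Tβ-MCA. Their log2 fold changes lay between -0.49 (Pde10a) and 0.20 (Pde8b).

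The other genes of the cAMP pathway were called with Tβ-MCA at about the share of all genes. Of 106 genes in 10 lists, from receptors to target genes and including the other phosphodiesterases, the count table held 103, of which 82 were tested. With Tβ-MCA against PBS, 3 were higher and 3 were lower with an adjusted p under 0.05 in edgeR, where 7.62% of all genes were called, and the median log2 fold change of the 82 was -0.10 against 0.00 of all genes tested. Without Tβ-MCA replicate 5, 4 were higher and 11 were lower, where 18.0% of all genes were called. The count was 0 without PBS replicate 3 or 5 or Tβ-MCA replicate 3 or 4, and 3 without PBS replicate 6. In the 4 fits with a count of 0, edgeR called 0 of all genes, with 2875 to 3599 at an unadjusted p under 0.05. With TCA and with GCA, 0 of the 82 were called in edgeR. With each, 3 had an unadjusted p under 0.05, where 3.26% of all genes had with TCA and 3.53% with GCA.

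**Figure D4:**
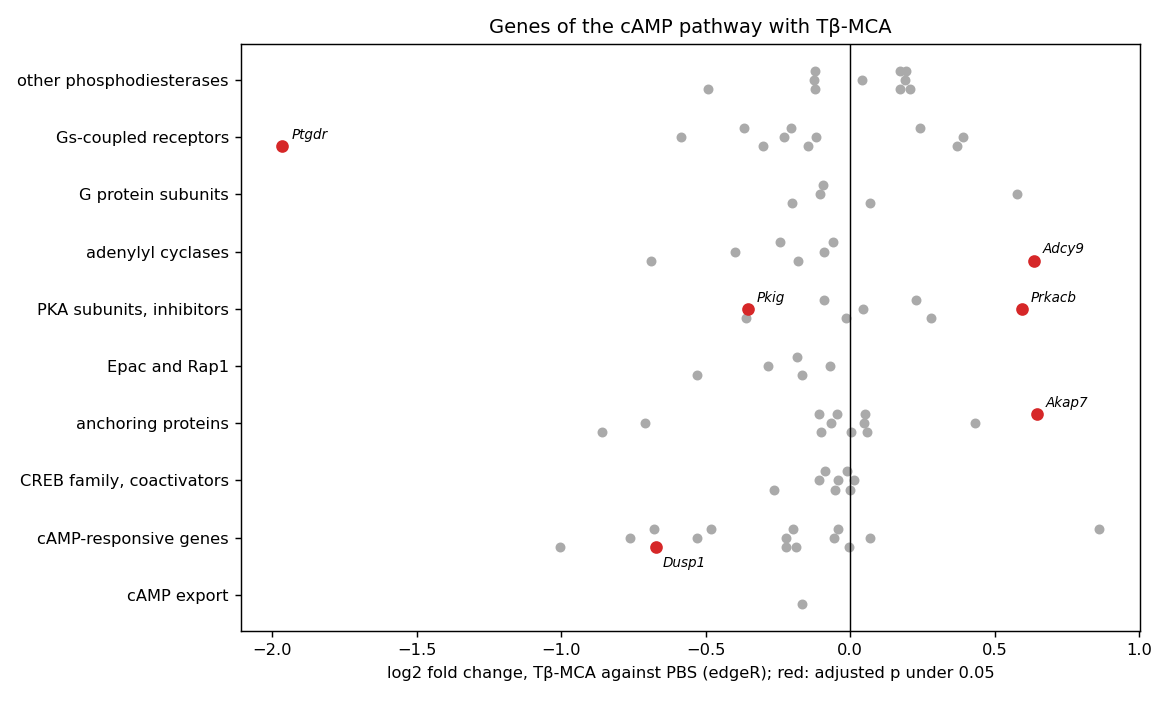
Each point is a tested gene of the cAMP pathway, placed by its log2 fold change between Tβ-MCA and PBS from edgeR (horizontal axis) in the row of its list. The 6 named red points have an adjusted p under 0.05, with Adcy9, Prkacb and Akap7 higher and Dusp1, Pkig and Ptgdr lower.

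On the synthesis side, Adcy9, which encodes an adenylyl cyclase, was at 33.04 to 38.5 CPM with PBS and 47.0 to 66.2 CPM with Tβ-MCA (log2 fold change 0.63, standard error 0.12, adjusted p = 0.0206 in edgeR). Adcy7, the adenylyl cyclase gene with the most counts, did not pass the test (log2 fold change -0.18, adjusted p = 0.0784 in edgeR). Among the receptors, Ptgdr, which encodes a Gs-coupled receptor of prostaglandin D2, fell by 1.96 on the log2 scale (standard error 0.53, adjusted p = 0.039 in edgeR) from a low level of 0.530 to 0.701 CPM with PBS to 0.0598 to 0.243 CPM with Tβ-MCA, which reaches below the 3 counts treated as detected. Hrh2, which encodes a histamine receptor, did not pass (log2 fold change 0.24, adjusted p = 0.113 in edgeR). Gpbar1, the Gs-coupled bile acid receptor, is named after its values were seen. It had at most 4 counts in any sample and 3 or more in 1 of the 12, and was not tested.

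At the level of PKA, Prkacb, which encodes a catalytic subunit, was at 31.2 to 39.2 CPM with PBS and 46.0 to 58.99 CPM with Tβ-MCA (log2 fold change 0.59, standard error 0.10, adjusted p = 0.0206 in edgeR). Pkig, which encodes an inhibitor of PKA, was at 67.2 to 74.2 CPM with PBS and 51.5 to 62.8 CPM with Tβ-MCA (log2 fold change -0.35, standard error 0.09, adjusted p = 0.0296 in edgeR). Akap7, which encodes an anchoring protein that binds PKA, was at 13.97 to 19.96 CPM with PBS and 22.4 to 33.2 CPM with Tβ-MCA (log2 fold change 0.64, standard error 0.16, adjusted p = 0.0307 in edgeR). Prkar1a and Prkar2b, which encode regulatory subunits and had the most counts, did not pass (log2 fold change -0.09 and 0.04). Without Tβ-MCA replicate 5, the log2 fold changes were 0.74 for Adcy9, 0.67 for Prkacb, -0.46 for Pkig and 0.77 for Akap7. They were -1.98 for Ptgdr and -0.87 for Dusp1 in the same fit. Each of these 6 genes was again called in edgeR, where 18.0% of all genes were called against 7.62% with all samples. Hrh2 (0.29, adjusted p = 0.0466) and Adcy7 (-0.21, adjusted p = 0.0427) then passed the test in edgeR too. Without PBS replicate 3 or 5, or Tβ-MCA replicate 3 or 4, edgeR called 0 of all genes and so none of these.

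Of 15 tested genes known to respond to cAMP, 1 was called lower, and 3 were without Tβ-MCA replicate 5, where 3.18% and 9.44% of all genes were called lower. In value, 2 of the 15 were higher, where 8477 of the 16761 genes tested were. Dusp1, which encodes a phosphatase of MAP kinases, was at 463.2 to 566.3 CPM with PBS and 274.0 to 399.9 CPM with Tβ-MCA (log2 fold change -0.67, standard error 0.14, adjusted p = 0.0225 in edgeR). Thbs1, which like Dusp1 had the most counts of this list, had a log2 fold change of -1.003 (adjusted p = 0.0812 in edgeR), and -1.36 without Tβ-MCA replicate 5 (adjusted p = 0.00894 in edgeR). The monocyte markers given above were lower in the same Tβ-MCA samples, and their part in the values of these genes was not tested. None of the 8 tested CREB factors and coactivators was called, and Ep300 and Crebbp had log2 fold changes of -0.11 and -0.09.

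Between Tβ-MCA and TCA, 4 of the 82 pathway genes were higher and 2 were lower with an adjusted p under 0.05 in edgeR, where 3.51% of all genes were called. Without Tβ-MCA replicate 5, 4 were higher and 8 were lower, where 15.3% of all genes were called. Adcy9, Prkacb and Dusp1 were among them, with log2 fold changes of 0.45, 0.47 and -0.75. The others were Adora2a, an adenosine receptor (1.06), Hrh2 (0.35) and Ptger4, a receptor of prostaglandin E2 (-0.38). Adora2a was at 1.24 to 2.42 CPM with TCA, 2.75 to 3.30 with PBS and 3.73 to 4.37 with Tβ-MCA. It was not called between Tβ-MCA and PBS. The doses differ by the labels here too.

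Across the 12 samples, the genes whose log2 CPM followed that of Pde7b most closely were Arfgef2 (Pearson r 0.973), Jakmip1 (0.969), Gm16754 (0.967), Mroh1 (0.964) and Mcf2l (0.964). Without the Tβ-MCA samples, r over the remaining 9 samples was 0.935, 0.941, 0.898, 0.890 and 0.859. These genes were picked from the 16761 tested by r over all 12 samples, which include these 9. The r over 9 samples is therefore no separate check. Arfgef2 encodes an exchange factor for ARF GTPases. Arfgef2 was at 254.9 to 276.3 CPM with PBS, 280.1 to 324.4 with GCA and 319.0 to 435.2 with Tβ-MCA. Among the paralogs, Pde3b was the closest to Pde7b with an r of 0.840, which was 0.470 without the Tβ-MCA samples. The r of the other paralogs was 0.521 for Pde4a, 0.107 for Pde4b, -0.288 for Pde4d, -0.533 for Pde7a and -0.575 for Pde8a. These values describe the samples, and all genes of a sample share its library. For Arfgef2 the ranges of Tβ-MCA and GCA overlapped.

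Scaling by library size alone shifted the balance of calls between Tβ-MCA and PBS in edgeR to 1013 genes up and 395 down, from 745 and 533 with TMM. Pde3b was at a log2 fold change of 0.59 on that scale (adjusted p = 0.0187 in edgeR).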

How the data were processed

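RNA-seq of 12 mouse neutrophil samples was analysed, 3 in each of 4 groups named by the sample titles. The authors deposited read counts per gene and RPKM values. Per the methods, reads were filtered with Trimmomatic (0.36) and those on exons counted with featureCounts, and the submitters' processing notes also name STAR 2.5.3a, Subread 1.5.1 and GRCm38. The deposited RPKM followed from the counts to within a relative difference of 1.3e-06. The library kit is stranded, and whether the counting used strand is not given in the sources used here. In every sample more genes had a count of 2 than of 1, and whether both mates of a read pair were counted is not given either.

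Counts were tested with edgeR 4.0.16 (R 4.3.3; TMM, filterByExpr by group, robust quasi-likelihood fit over all 12 samples), and a gene was called at a Benjamini-Hochberg adjusted p under 0.05 over all genes tested. CPM is the count divided by the TMM-scaled library size. Standard errors are the fold change divided by the square root of F. Sums of RPKM were compared by exact permutation tests. The alternatives were DESeq2 1.42.0, limma 3.58.1 on log2(RPKM + 1) and log2(RPKM + 0.1) (genes averaging 0.5 RPKM or more, or no filter), library size without TMM, no filter, a minimum of 10 counts per sample, a fit of only the 2 groups, a replicate block, each sample left out, and the study's call rule (unadjusted p under 0.05 with a fold of 2). Fitting without both close libraries, and the block without Tβ-MCA replicate 5, were added after seeing the data. Python 3.11.15 was used for the rest. The scripts were tested on simulated data.

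The members and the gene lists were chosen with earlier results of these data known. Named genes are the members and genes overlapping them, tested phosphodiesterases, called pathway genes with up to 12 of the lowest p, the 2 genes of each list with the highest mean CPM, and the 5 genes most like Pde7b. A gene that this rule names is not reported here.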

Additional observations from a re-analysis of the deposited data

How the results depend on the processing

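The paralogs called between Tβ-MCA and PBS were 1 in edgeR, 0 with only the 2 groups, 0 in limma on log2(RPKM + 1) without a filter, 0 by the study's call rule (unadjusted p under 0.05 with a fold of 2), 2 in the replicate block without Tβ-MCA replicate 5, where Pde8a joined Pde3b, and 0 to 1 with each sample left out. Between Tβ-MCA and TCA, the 0 paralogs called became 1 without a filter, 1 with the replicate block and 1 without both close libraries (Pde3b each time), 2 in the block without replicate 5, and 0 to 1 with each sample left out. All genes called between Tβ-MCA and PBS were 1278, and 2035 in DESeq2, 2406 without a filter, 689 in limma on log2(RPKM + 0.1), 4 in limma on log2(RPKM + 1) without a filter, 0 with only the 2 groups, 3053 without both close libraries, 3548 in the block without replicate 5, 494 by the study's rule, and 0 to 3076 with each sample left out. The cAMP pathway genes called were 6, and 11 in DESeq2, 14 without a filter, 0 in limma on log2(RPKM + 1) without a filter, 0 with only the 2 groups, 14 without both close libraries, 16 in the block without replicate 5, 2 by the study's rule, and 0 to 15 with each sample left out. The filters and the 2-group fit change the genes or samples that share the spread, and other causes were not tested.

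Directions changed only for differences that did not pass the test in edgeR over all 12 samples. The log2 fold change of Pde7b with TCA against PBS was -0.0034 with the replicate block and -0.0044 to 0.26 with each sample left out. Without both close libraries, Pde4b was at -0.055 and Pde8a at 0.052 between GCA and TCA, and in the block without replicate 5, Pde8a was at -0.0056 with GCA against PBS. Between Tβ-MCA and TCA, Pde7a was at 0.014 and Pde4d at 0.018 without TMM, at 0.0095 and 0.013 in limma on log2(RPKM + 1) with or without a filter, and at 0.015 and 0.016 in limma on log2(RPKM + 0.1). With each sample left out, the range included 0 for Pde4b (-0.14 to 0.11) and Pde8a (-0.025 to 0.14) with TCA against PBS, for Pde4b (-0.11 to 0.13), Pde4d (-0.034 to 0.00047) and Pde8a (-0.13 to 0.11) with GCA against PBS, for Pde4b (-0.13 to 0.18), Pde3b (-0.010 to 0.11) and Pde8a (-0.17 to 0.050) between GCA and TCA, and for Pde7a (-0.073 to 0.0047), Pde4b (-0.0053 to 0.25) and Pde4d (-0.084 to 0.064) between Tβ-MCA and TCA. The summed RPKM differed by -0.069 to 1.22 between TCA and PBS and by -0.40 to 0.67 between GCA and TCA with each sample left out. Of 585 alternative values of single members, 538 were counted as the same. This meant the same direction and side of the threshold, except for Pde7b with Tβ-MCA. There it meant only a log2 fold change near the main value, with no threshold applied. With TCA and with GCA against PBS, edgeR called 0 of all genes, so a member that stayed uncalled there says little. Pde3b, the paralog called between Tβ-MCA and PBS, kept its call in 10 of 17 alternatives. The log2 fold change of Pde7b with Tβ-MCA against PBS lay between 1.05 and 1.36 in all fits to counts, and was 0.39 in limma on log2(RPKM + 1) without a filter, a scale that shrinks low genes.

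Same-numbered samples of different groups correlated in their deviations from the group mean with a mean r of 0.19 over 15 pairs (lowest 0.06), against -0.07 for other pairs, and PBS shares only 2 numbers with each bile acid, so the numbers were not taken as pairs. With the replicate number as a block, 1 paralog was called between Tβ-MCA and PBS and 1 between Tβ-MCA and TCA, with 1498 of all genes called between Tβ-MCA and PBS, and no member was called in the other comparisons. Between Tβ-MCA and TCA, the block called 1156 of the 16761 genes tested higher and 1166 lower. Of the 82 tested cAMP pathway genes it called 5 higher and 12 lower there.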
